A study of Mus musculus with 84 samples.

Results

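The comparison concerned the livers of obese mice given semaglutide at 100 nmol/kg and at 20 nmol/kg. The 12 liver libraries of this comparison, 6 for each dose, were taken from 84 libraries of liver and epididymal fat (eWAT). Their titles give a compound code and the dose. The code was taken as semaglutide, which the study gave at these doses. The question was whether the hepatic transcriptional response to this drug was already complete at the lower dose, and which genes still differed at the higher one. All animals were male C57BL/6J mice kept on a diet with 60% fat and housed singly. They were 22 weeks old when treatment began and were injected subcutaneously once a day for 30 days. The vehicle group (6 livers) received no active peptide, and 4 further groups received BI 456906, which activates the glucagon receptor (GCGR) as well as the receptor of glucagon-like peptide-1 (GLP-1R), at 3, 10, 20 or 30 nmol/kg. The study kept 11 mice in each group, and 6 libraries per group and tissue were analysed here.

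Semaglutide is an acylated analogue of glucagon-like peptide-1 that activates GLP-1R. This receptor is known from pancreatic beta cells, the stomach and the brain, where it promotes insulin secretion, slows gastric emptying and lowers food intake, while hepatocytes carry the glucagon receptor instead. The liver of an obese mouse stores triglyceride in lipid droplets, makes fatty acids from carbohydrate, and attracts macrophages, and it responds to reduced feeding and to weight loss by changing glucose production, lipogenesis and amino acid breakdown.

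No gene separated the doses. Among 15964 genes tested together in limma/voom over 42 liver libraries, 0 were called for 100 against 20 nmol/kg, that is 0% with a log2 fold change of at least 1 in size and a false discovery rate (FDR, Benjamini-Hochberg) of at most 0.05. The FDR criterion alone also left 0 genes, and the lowest FDR was 0.9997. At an unadjusted p under 0.05 there were 482 genes, or 3.02% of those tested, 261 higher and 221 lower at 100 nmol/kg. The edgeR quasi-likelihood test and DESeq2, run on whole reads, likewise called 0 genes, with 449 and 442 genes at an unadjusted p under 0.05. The 6 values of one dose lay entirely beyond the 6 of the other for 22 genes, 0.138% of those tested.

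Both doses moved the liver a long way from vehicle. With 20 nmol/kg, 504 genes were called higher (3.16% of genes tested) and 467 lower (2.93%). With 100 nmol/kg, 492 were higher (3.08%) and 586 lower (3.67%). At FDR alone the counts were 7417 and 7686 genes. The comparisons with vehicle share the vehicle libraries, so their likeness is not independent evidence. In the same fit, the step from 10 to 30 nmol/kg of BI 456906 called 407 genes (2.55%). That step differs in compound and in doses from the semaglutide step, and the difference between the steps was not tested.

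A test that passes no gene does not show that the doses act alike, so the interval of each difference was examined. The estimated difference was smaller than 0.5 log2 units in 15271 genes (95.7%). The 95% interval lay entirely between -1 and 1, which excludes a doubling or a halving by dose, for 14230 genes, 89.1% of those tested. The interval lay between -0.5 and 0.5 for 10659 genes (66.8%). This precision followed abundance. With genes in 4 classes of equal size by abundance, 61.4% of the intervals lay between -1 and 1 in the lowest class, with a median of 15 reads per library, whereas the share was 99.1% in the highest class, with a median of 3086 reads. A dose difference in a scarce transcript was therefore often not detectable at this depth.

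The genes that responded to semaglutide were chosen by the mean of both doses against vehicle. The error of this mean does not correlate with that of the dose difference when the dose groups are of equal size and equal spread. Pairs of libraries differed by a chi-square per degree of freedom of up to 133 with 100 and up to 68.6 with 20 nmol/kg. The choice of genes may therefore not be neutral to the dose difference. The contrast of the mean with vehicle called 496 genes higher (3.11%) and 538 lower (3.37%). Since 0 of all genes tested were called for 100 against 20 nmol/kg, 0 of these 1034 were. The same holds for each set of genes described below, so such a 0 is not a separate result. The median log2 fold change of the genes that rose was 1.43 at both doses, and the median of their dose differences was -0.02 (quartiles -0.17 and 0.09). The genes that fell had a median of -1.22 with 20 and -1.37 with 100 nmol/kg, and the median of their dose differences was -0.12 (quartiles -0.36 and 0.07), against -0.004 over all genes tested. Of the genes that fell, 362 of 538 (67.3%) were lower at 100 nmol/kg, compared with 51.6% of all genes tested.

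That lean towards lower values at 100 nmol/kg depended on single libraries. Expressed by library as the median over the 538 genes, the decrease ranged from -0.98 to -1.66 with 20 nmol/kg and from -1.10 to -1.81 with 100 nmol/kg, so the groups overlapped. Replicate 81 was the most extreme of the 100 nmol/kg group and was also its shallowest library, with 30040261 reads. When libraries were left out, the genes that fell or rose were chosen again in the smaller fit, so they are not the same genes throughout. Without replicate 81 the median dose difference of the genes that fell was -0.03, and without replicate 74 of the 20 nmol/kg group it was -0.21. Replicate 77 was the shallowest of the 20 nmol/kg group at 21676902 reads. With replicates 81 and 77 both left out, the median was -0.02, and that of the genes that rose was -0.12. The parts of depth and of the renewed choice of genes in these values were not tested.

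**Figure D1:**
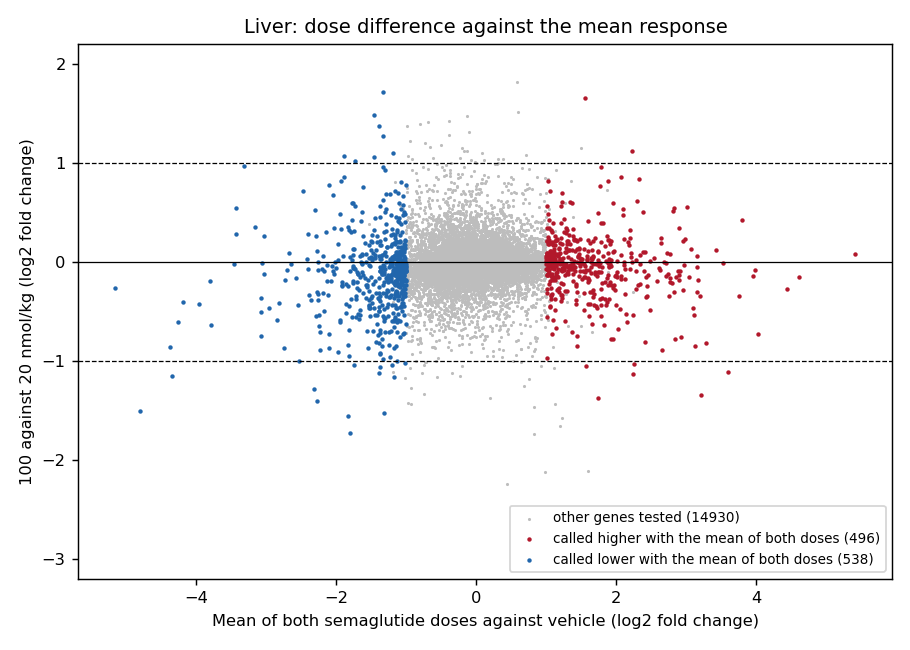
Each point is a gene tested in liver, with the log2 fold change of the mean of both semaglutide doses against vehicle on the x axis and the log2 fold change of 100 against 20 nmol/kg on the y axis. The 496 genes called higher (red) and 538 called lower (blue) extend past 5 log2 units from vehicle, while nearly all points lie between the dashed lines at -1 and 1 for the dose difference.

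The 20 genes with the smallest p for 100 against 20 nmol/kg show what the widest separation between the doses looked like. They were chosen by that p, so their levels are a description, and the FDR of each was 0.9997. Of these 20 genes, 11 were higher and 9 lower at 100 nmol/kg. Against vehicle, 6 of them were called at 20 nmol/kg and 3 at 100 nmol/kg, and 0 were called at both.

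First in this order stood A330023F24Rik, annotated as a processed transcript without a protein product (chromosome 1, 194976375 to 195037904, plus strand, GRCm38). Its level, in transcripts scaled by gene length and library (TPM), had a lowest, median and highest value of 3.53, 4.07 and 5.20 with vehicle, 4.12, 4.68 and 5.52 with 20 nmol/kg, and 6.59, 6.86 and 7.17 with 100 nmol/kg. The 6 libraries of the higher dose lay above all 12 others and close together. The log2 fold change of 100 against 20 was 0.56 (95% interval 0.30 to 0.82, unadjusted p = 9.80e-05 in limma/voom). When only the 12 semaglutide libraries were fitted, it was the 1 gene at FDR 0.05 (limma/voom adjusted p = 0.0429), with the same estimate of 0.56, short of the minimum fold of a call. The antisense transcript 1810013D15Rik came next, at 0.17 to 0.59 TPM with 20 and 0.69 to 1.19 TPM with 100 nmol/kg. Its reads numbered 5 to 28 per library and cannot be told apart from those of an overlapping gene if strand was not kept.

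Among the regulators in this set, several stood above vehicle at 20 nmol/kg and nearer to it at 100 nmol/kg. Rgs16, which shortens signalling by G proteins and is induced by fasting in liver, measured 32.7, 53.9 and 87.0 TPM with vehicle (lowest, median, highest), 111, 157 and 213 TPM with 20 nmol/kg, and 44.6, 73.2 and 111 TPM with 100 nmol/kg. The highest library with 100 nmol/kg (110.74 TPM) lay just under the lowest with 20 nmol/kg (110.99 TPM), though the fitted log2 values of the doses overlapped, and the 100 nmol/kg libraries overlapped vehicle. Rgs16 was called against vehicle at 20 nmol/kg (log2 fold change 1.45, limma/voom adjusted p = 2.73e-05) and reached 0.40 at 100 nmol/kg (adjusted p = 0.202), with a dose difference of -1.05 (95% interval -1.59 to -0.51).

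Tob2, an antiproliferative protein that recruits the deadenylation machinery to mRNAs, had medians of 16.1, 30.0 and 23.7 TPM for vehicle, 20 and 100 nmol/kg and a dose difference of -0.37 (95% interval -0.57 to -0.17). The highest value with 100 nmol/kg, 28.4 TPM, lay under the lowest with 20 nmol/kg, 28.7 TPM.

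Pfkfb3 makes fructose 2,6-bisphosphate, the activator of glycolytic flux. It measured 1.37 to 2.97 TPM with vehicle, 4.64 to 9.64 TPM with 20 and 2.72 to 4.93 TPM with 100 nmol/kg, so that the semaglutide groups overlapped only at their edges. The log2 fold changes were 1.45 and 0.72 against vehicle, and -0.72 between doses (95% interval -1.13 to -0.31). Mycn, a proto-oncogene of the Myc family, had medians of 0.265, 0.98 and 0.43 TPM in the same order and a dose difference of -0.97 (95% interval -1.57 to -0.37), with 2 libraries of the 100 nmol/kg group, at 0.63 and 1.12 TPM, among those of the lower dose. Tcim, a small positive regulator of Wnt signalling, ran from 40.1 to 64.7 TPM with 20 and from 22.7 to 33.03 TPM with 100 nmol/kg, without overlap. Vehicle overlapped both ranges for Tcim, at 25.01 to 51.5 TPM, and neither dose differed from it at FDR 0.05.

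**Figure D2:**
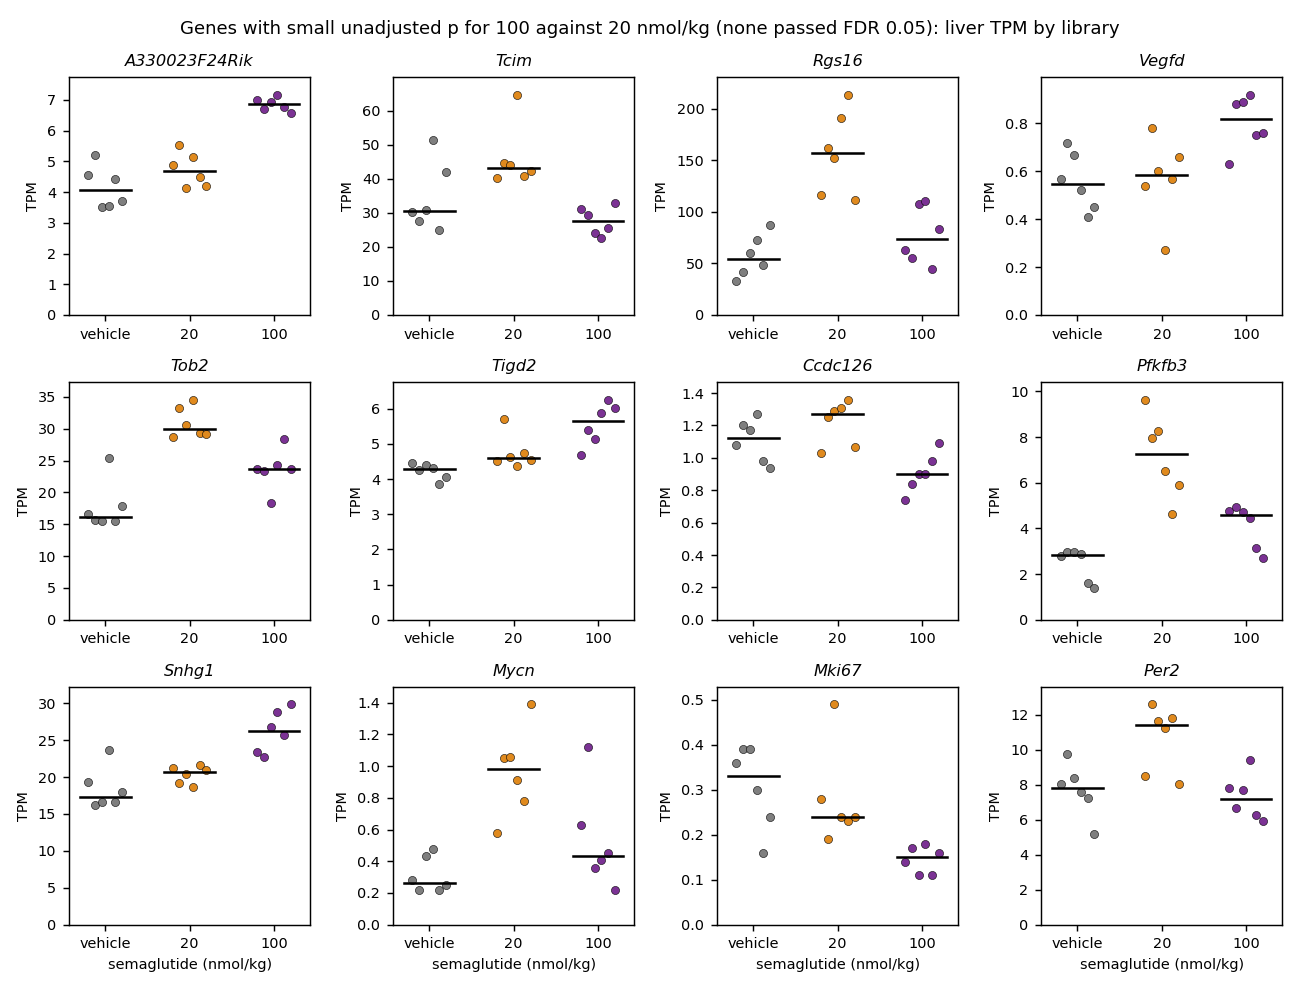
Liver TPM (y axis, from 0) of 12 genes with small unadjusted p for the dose difference, with 1 point per library for vehicle (grey), 20 nmol/kg (orange) and 100 nmol/kg (purple), 6 libraries each, and the group median as a bar. A330023F24Rik stands above all other libraries at 100 nmol/kg, whereas Rgs16, Pfkfb3 and Mycn are highest at 20 nmol/kg.

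The rest of this set was made up of small differences or of scarce transcripts. Tigd2, derived from a transposase, differed by 0.24 (95% interval 0.10 to 0.37), and Snhg1, a host gene of small nucleolar RNAs, by 0.33 (0.14 to 0.52), both higher at 100 nmol/kg. Ccdc126 was lower by dose at -0.41 (-0.63 to -0.18), and Vegfd, a growth factor of lymphatic vessels, was higher at 0.57 (0.22 to 0.92). The exchange factor Arhgef28, at 1.05 (0.45 to 1.64), and the ubiquitin ligase Lnx1, at 1.71 (0.70 to 2.73), had at most 15 reads in any semaglutide library. The pseudogenes Gm10509 and Gm7993 and the antisense transcript Gm10501 can share reads with their parent or partner genes, and their differences of 0.79, 1.03 and 0.43 are uncertain for that reason.

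Mir345 was the only microRNA gene of the set. The count fell on its hairpin locus (chromosome 12, 108836973 to 108837068, plus strand, GRCm38), with 0 to 7 reads in the 20 nmol/kg libraries and 5 to 15 in the 100 nmol/kg libraries, and TPM was listed at 0 in all of them. The dose difference of 1.65 (95% interval 0.79 to 2.52) thus rests on a handful of reads that an mRNA library does not resolve into a precursor or a mature strand. The mature strands from RefSeq (GRCm38.p6) are shown to identify the locus, with the seed, bases 2 to 8, in capitals:
mmu-miR-345-5p: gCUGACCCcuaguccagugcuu
mmu-miR-345-3p: cCUGAACUaggggucuggagac

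The receptors themselves gave no contrast. Glp1r, the target of semaglutide, had 0 to 4 reads in every liver library of the vehicle and semaglutide groups and fell below the filter on low counts. A two-sided exact permutation test of its TPM between doses gave p = 0.870. Gcgr, the glucagon receptor, was abundant at 204 to 231 TPM with 20 and 182 to 228 TPM with 100 nmol/kg, and its difference of -0.04 had an interval of -0.18 to 0.10. Of the 13 genes tested from the list of both receptors and cAMP signalling, 1 had an unadjusted p under 0.05 against the 3.02% of all genes. This was Nr4a1, an immediate early nuclear receptor that cAMP induces, at -1.74 (95% interval -3.29 to -0.19), and its libraries spread from 1.28 to 10.8 TPM with 20 and from 0.71 to 8.47 TPM with 100 nmol/kg. Adcy9, an adenylate cyclase, was called higher than vehicle at both doses (1.09 and 1.01).

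A set of 41 landmark genes of hepatic metabolism was followed beside these. Of the 40 that could be tested, 29 had a dose interval between -1 and 1, where 89.1% of all genes did. An unadjusted p under 0.05 was found for 1 of the 40, against 3.02% of all genes. At 100 nmol/kg, 25 were lower (51.6% of all genes were) and 15 higher. Against vehicle, 8 were called at both doses, in the same direction each time, and Gdf15 was called at 100 nmol/kg as well. Over all genes, 736 of 15964 were called at both doses.

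Genes of glucose production did not move in one direction. Of 14 tested from the gluconeogenesis list, Pck1 and Ppargc1a were called higher at both doses (3.16% and 3.08% of all genes were). Calls for lower numbered 0 at each dose (2.93% and 3.67% of all genes). At FDR 0.05 alone, 4 were higher and 5 lower than vehicle at each dose, and the list medians were 0.03 and 0.05. Pck1, the cytosolic phosphoenolpyruvate carboxykinase that commits carbon to gluconeogenesis, rose from 632, 933 and 1783 TPM with vehicle (lowest, median, highest) to 2476, 2629 and 2906 TPM with 20 nmol/kg and to 1583, 2309 and 2988 TPM with 100 nmol/kg. The 20 nmol/kg libraries all lay above vehicle, while the 100 nmol/kg libraries spread more widely and touched the highest vehicle library. The log2 fold changes against vehicle were 1.32 and 1.11 (limma/voom adjusted p = 1e-07 and 1.3e-06), and the dose difference was -0.21 (95% interval -0.56 to 0.13). Ppargc1a, the coactivator PGC-1alpha that drives gluconeogenic and mitochondrial genes, was called at both doses with 1.19 each and a dose difference of 0.00 (-0.25 to 0.26). G6pc, glucose 6-phosphatase, differed by -0.08 (-0.43 to 0.26) and was not called at either dose. Foxo1, the insulin-restrained transcription factor above these genes, had medians of 7.78, 15.7 and 13.3 TPM and the smallest p of the list, 0.0501, at -0.24 (-0.47 to 0.00). Its TPM ran from 14.9 to 17.5 with 20 and from 12.7 to 14.6 with 100 nmol/kg, though the fitted log2 values of the doses overlapped. All 14 genes of the gluconeogenesis list had a dose interval between -1 and 1.

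Because Pck1 was the most abundant gene of this group and responded at both doses, the 150 bases before its start site are shown (RefSeq, GRCm38.p6, chr2:173152923-173153072, plus strand). The capitals mark the only match to TGACGT, which lies on the minus strand from 91 to 86 bases before the start. TGACGT is TGACG, the half-site bound by the cAMP response element binding protein, with a T added. TGACGT occurs on either strand in 7.51% of the 32851 promoter windows of 300 bases. The shorter half-site was not counted. Among the 11409 genes tested in liver that had a window, the share was 11.3%. A match is a description of letters and not evidence of binding.
Pck1: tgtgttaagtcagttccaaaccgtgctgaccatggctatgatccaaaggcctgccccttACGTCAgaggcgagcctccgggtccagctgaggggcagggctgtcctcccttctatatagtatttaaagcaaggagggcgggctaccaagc

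Glycolysis and glycogen genes leaned one way. All 16 tested members were lower at 100 than at 20 nmol/kg, by a median of -0.17 and at most -0.72 (Pfkfb3), while 0 were called for the dose difference and 2 had an unadjusted p under 0.05 (3.02% of all genes had). Besides Pfkfb3 this was Ppp1r3b, the hepatic subunit that brings protein phosphatase 1 to glycogen, at 102 to 129 TPM with vehicle, 172 to 227 TPM with 20 and 67.1 to 181 TPM with 100 nmol/kg (dose difference -0.45, 95% interval -0.78 to -0.12). Pklr, the liver pyruvate kinase, was called lower than vehicle at both doses (-1.12 and -1.47), and its dose difference was -0.35 (-0.74 to 0.05). Without replicate 81 of the 100 nmol/kg group the median was -0.09.

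Lipogenesis genes leaned the same way. Of 23 tested, 21 were lower at 100 nmol/kg, with a median of -0.20, and 0 were called for the dose difference. Fasn, the fatty acid synthase, had medians of 146, 94.7 and 79.5 TPM for vehicle, 20 and 100 nmol/kg, and Srebf1, the insulin-driven regulator of the pathway, 75.7, 53.3 and 48.6 TPM. The dose differences were -0.30 (95% interval -0.67 to 0.06) for Fasn and -0.29 (-0.72 to 0.14) for Srebf1, with wide overlap between groups. Elovl6, the elongase that makes stearate, had the smallest p of the list, 0.0489, at -0.54 (-1.07 to -0.003). Thrsp, a lipogenic coregulator, was called lower at both doses (-1.73 and -2.46), whereas Elovl6 (-1.09) and Acss2, which activates acetate (-1.11), were called lower at 100 nmol/kg. That these passed at 1 dose does not show a difference between doses. Their dose tests did not pass.

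Scd1, the stearoyl-CoA desaturase, shows how much 1 library can weigh in this list. Its TPM ran from 797 to 2157 with 20 nmol/kg and from 211 to 1763 with 100 nmol/kg, and the dose difference of -0.63 (95% interval -1.31 to 0.05) lay between -0.81 and -0.20 as each library was left out in turn. With the shallowest library of each dose left out, 20 of 23 lipogenesis genes were lower and the list's median was -0.09, and without replicate 81 alone it was -0.11. The member called higher than vehicle was Lpin1, a phosphatidate phosphatase that fasting induces, at both doses (3.33 and 2.87), and 2 members were higher at FDR 0.05 alone at each dose.

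**Figure D3:**
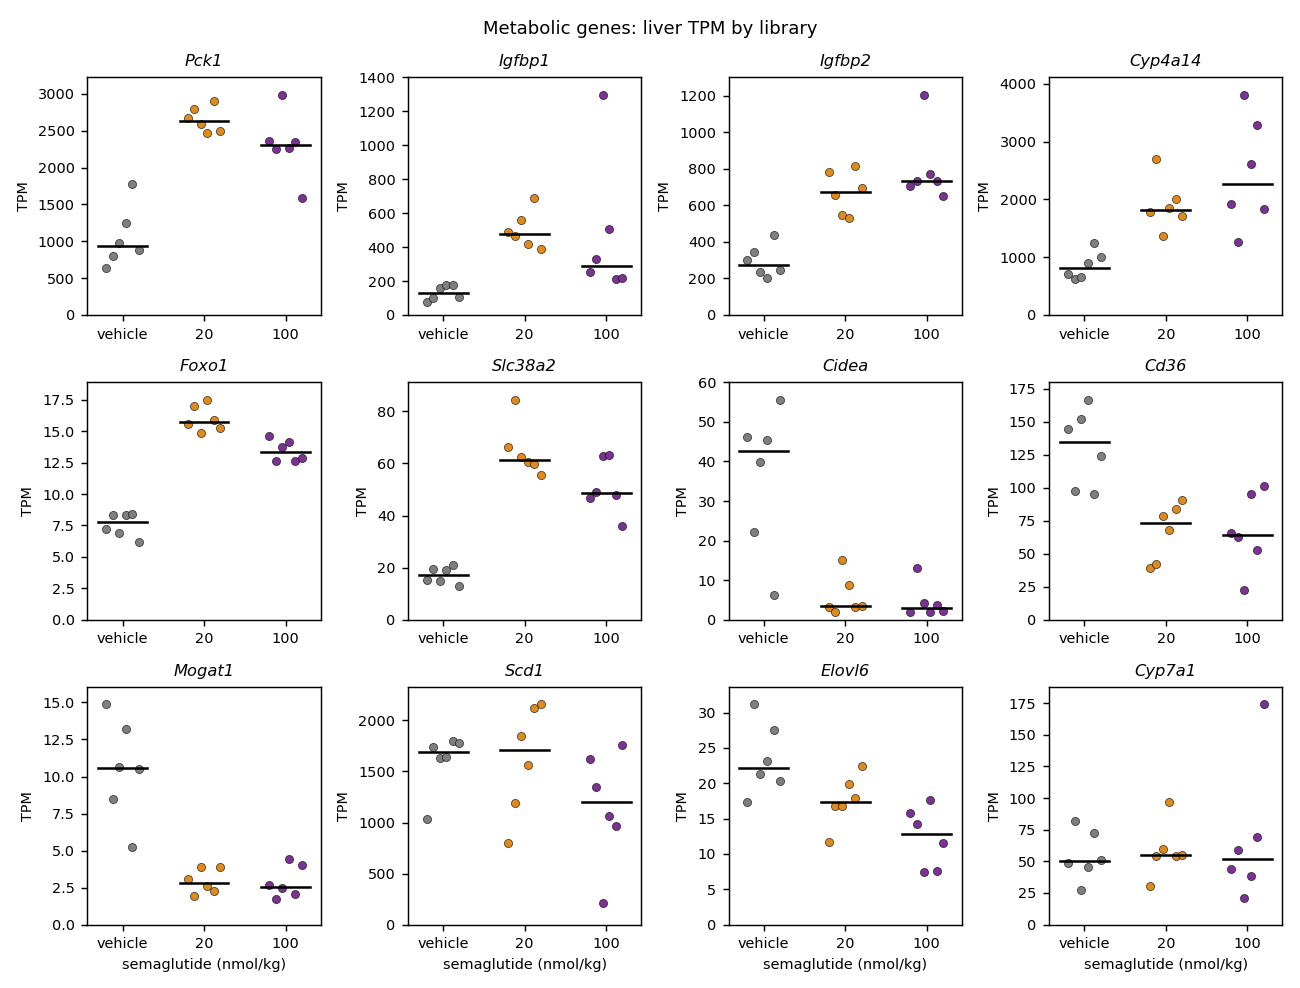
Liver TPM (y axis, from 0) of 12 metabolic genes, with 1 point per library for vehicle (grey), 20 nmol/kg (orange) and 100 nmol/kg (purple), 6 libraries each, and the group median as a bar. Igfbp1, Igfbp2, Cyp4a14, Foxo1 and Slc38a2 stand above vehicle and Mogat1 below it at both doses, with Cyp4a14 only just above it at 100 nmol/kg. The 2 semaglutide groups overlap for every gene drawn but Foxo1.

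Lipid droplet and uptake genes gave the same 8 calls against vehicle at each dose. Of 21 tested, 7 were called lower (2.93% of all genes at 20 and 3.67% at 100 nmol/kg) and 1 higher (3.16% and 3.08%), 13 were not called, the list medians were -0.38 and -0.35, and the median dose difference was -0.02. Cidea, which fuses droplets in steatotic hepatocytes, had 6.18, 42.6 and 55.6 TPM with vehicle (lowest, median, highest), 2.01, 3.44 and 15.1 TPM with 20 and 1.91, 3.06 and 13.1 TPM with 100 nmol/kg. Both semaglutide groups overlapped 1 vehicle library, the lowest. The log2 fold changes of Cidea were -2.72 and -3.19, and its dose interval of -1.93 to 0.99 did not exclude a halving by dose. Cidec, its relative, gave -1.20 and -1.57. Mogat1, a monoacylglycerol acyltransferase of fatty liver, was lower without any overlap with vehicle (5.21 to 14.9 TPM) at 20 (1.93 to 3.91 TPM) and at 100 nmol/kg (1.73 to 4.41 TPM), with a dose difference of -0.21 (-0.83 to 0.42). Cd36, the fatty acid translocase, gave -1.13 and -1.19 against vehicle and -0.07 between doses (-0.64 to 0.51). Pparg (-1.49 and -1.53) and the lipoprotein lipase Lpl (-1.23 and -1.22) were also called at both doses, with dose intervals of -0.62 to 0.54 and -0.61 to 0.63.

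Fatty acid oxidation gave small differences. Of 28 genes tested from the list of oxidation, ketogenesis and PPARalpha targets, 19 were higher at 100 nmol/kg with a median of 0.06, and 0 had an unadjusted p under 0.05. The median was 0.01 without replicate 81 and 0.11 without replicate 84, both of the 100 nmol/kg group. Cyp4a14, a PPARalpha target that hydroxylates fatty acids, rose from 627 to 1252 TPM with vehicle to 1363 to 2702 TPM with 20 and 1264 to 3813 TPM with 100 nmol/kg, with medians of 808, 1822 and 2267 TPM. Its log2 fold changes were 1.14 and 1.43, and the dose difference was 0.29 (95% interval -0.21 to 0.80). Ppara itself was called at both doses (1.58 and 1.49). Cpt1a, the gate for mitochondrial entry of fatty acids, did not pass the test against vehicle at either dose (limma/voom adjusted p = 0.853 and 0.914) and had a narrow dose interval of -0.18 to 0.17. Fgf21, a hepatokine of fasting, had medians of 22.9, 32.6 and 35.9 TPM and a dose interval of -0.26 to 0.68.

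Cholesterol synthesis had 0 of 23 genes called at either dose. Of all genes, 3.16% were called higher and 2.93% lower at 20 nmol/kg, and 3.08% and 3.67% at 100 nmol/kg. A list of 23 genes is too short for 0 calls to stand out from these shares. The FDR criterion alone left 6 lower and 3 higher than vehicle at 20 nmol/kg, and 8 and 3 at 100 nmol/kg. The list medians against vehicle were -0.26 and -0.19, and the median dose difference was 0.01. The dose interval lay between -1 and 1 for 22 of the 23, and the highest estimate was 0.27, for the ketosteroid reductase Hsd17b7. Among the 19 genes of bile acid and sterol disposal, Cyp39a1, an oxysterol hydroxylase, was called higher at both doses (1.04 and 1.27). Cyp7a1, the rate-limiting enzyme of bile acid synthesis, spread from 30.5 to 96.7 TPM with 20 and from 21.2 to 174 TPM with 100 nmol/kg around medians of 54.95 and 51.5 TPM, and its interval was -0.73 to 0.70. Cyp8b1, the sterol 12-hydroxylase, differed by 0.17 (-0.13 to 0.46). Nr0b2, the repressor SHP, had the smallest p of this list, 0.0896, at -0.88 (-1.90 to 0.14).

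Among 30 tested genes of amino acid breakdown, 3 were called higher at 20 nmol/kg (3.16% of all genes were) and 4 at 100 nmol/kg (3.08%). In limma/voom, 0 were called lower at either dose, though 4 and 5 were lower at FDR 0.05 alone, and the median dose difference was 0.02. Tat, the tyrosine aminotransferase, gave 2.09 and 1.71 against vehicle, the cationic transporter Slc7a2 gave 1.44 at both doses, and the urea cycle enzyme Cps1 gave 0.91 and 1.06. Slc38a2, a glutamine and alanine transporter induced by amino acid shortage, ran from 12.8 to 21.2 TPM with vehicle, from 55.5 to 84.5 TPM with 20 and from 35.9 to 63.2 TPM with 100 nmol/kg. It was called at both doses (1.85 and 1.49), and its dose difference of -0.35 (95% interval -0.71 to 0.00) had an unadjusted p of 0.0518. Nnmt, which methylates nicotinamide, was higher than vehicle at FDR 0.05 with both doses (0.76 and 0.92), below the fold of a call, with a dose interval of -0.40 to 0.74.

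The insulin and IGF axis held the landmark gene with the largest rise. Igfbp1, an insulin-repressed binding protein of insulin-like growth factors, had 75.1, 131 and 178 TPM with vehicle (lowest, median, highest), 386, 478 and 689 TPM with 20 and 211, 291 and 1298 TPM with 100 nmol/kg. All 12 semaglutide libraries exceeded the vehicle range, and 1 library of the higher dose, replicate 81, stood far above the other 5. The dose difference was -0.43 (95% interval -1.10 to 0.23). Igfbp2, a binding protein that is low in fatty liver, rose from 204 to 437 TPM with vehicle to 533 to 816 TPM with 20 and 652 to 1205 TPM with 100 nmol/kg, with a dose difference of 0.24 (-0.12 to 0.59). Gdf15, a stress hormone acting on the hindbrain, had medians of 18.8, 14.4 and 9.13 TPM, and its dose difference of -0.86 (-1.71 to -0.005) was the one landmark with an unadjusted p under 0.05 (0.0488). Igf1 differed by 0.11 (-0.17 to 0.38).

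**Figure D4:**
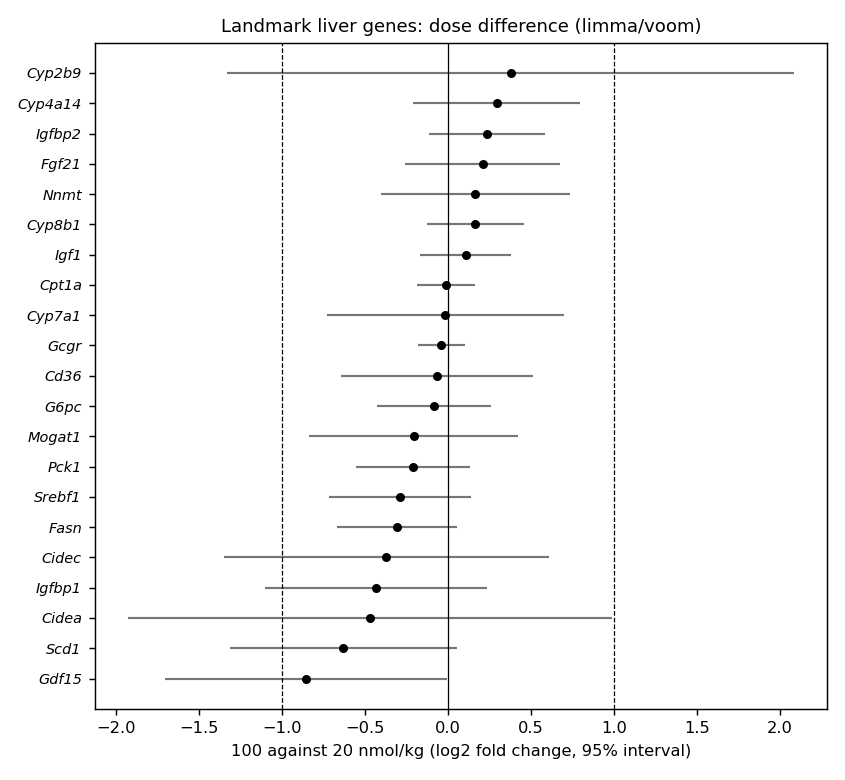
The log2 fold change of 100 against 20 nmol/kg (x axis) for 21 of the landmark genes, ordered by estimate, with the point as the limma/voom estimate and the bar as its 95% interval. For 15 of them the bar stays between the dashed lines at -1 and 1, and the bars of Cidea and Cyp2b9 are the widest.

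Proliferation genes leaned lower at 100 nmol/kg. Of 24 tested, 21 were lower at 100 nmol/kg with a median of -0.28, and 5 had an unadjusted p under 0.05 against 3.02% of all genes. Mki67, a protein of cycling cells, had 0.16, 0.33 and 0.39 TPM with vehicle (lowest, median, highest), 0.19, 0.24 and 0.49 TPM with 20 and 0.11, 0.15 and 0.18 TPM with 100 nmol/kg. The highest value with 100 nmol/kg lay just under the lowest with 20 nmol/kg, and the reads behind them numbered 40 to 151 and 27 to 64. Its dose difference was -0.86 (95% interval -1.38 to -0.33, unadjusted p = 0.0023). The mitotic kinase Aurka (-0.62), the replicative helicase subunit Mcm5 (-0.49), the cyclin-dependent kinase Cdk1 (-0.46) and the mitotic activator Cdc20 (-0.65) were the others.

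Against vehicle, 0 proliferation genes were called lower at 20 nmol/kg (2.93% of all genes were) and 5 at 100 nmol/kg (3.67% of all genes). The 5 were Mki67, Ccnb1, Cdc20, Aurkb and Mcm5, and the list medians were -0.26 and -0.50. Passing at 1 dose does not show a difference between doses, and 0 members were called for the dose difference. The cell cycle inhibitor Cdkn1a was called higher at both doses (2.09 and 1.85). The list kept its direction without the shallowest library of each dose, with 21 of 24 lower and a median of -0.20, and leaving out single libraries gave medians from -0.34 to -0.22, while on the log2(TPM + 1) scale, which compresses scarce transcripts, it was -0.07. Ckap2, a spindle protein outside the list, was also among the 20 smallest p at -1.27 (-2.05 to -0.49), with 2 to 15 reads per library at 100 nmol/kg. In bulk liver, fewer cells of a type and less RNA per cell cannot be told apart.

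Of 26 tested from the collagen and matrix list, 23 were lower at 100 nmol/kg with a median of -0.17, and 0 had an unadjusted p under 0.05. Col1a1 and Col3a1, the fibrillar collagens of scar tissue, were called lower than vehicle at both doses, at -1.43 and -1.95 and at -1.64 and -2.07. Col3a1 had 12.5 to 41.03 TPM with vehicle, 4.73 to 12.5 TPM with 20 and 3.26 to 7.55 TPM with 100 nmol/kg, with overlap between the doses and a dose difference of -0.43 (95% interval -1.08 to 0.23). Leaving out the shallowest library of each dose gave 19 of 26 lower and a median of -0.07, and leaving out replicate 73 of the 20 nmol/kg group gave -0.29. The summed level of 6 markers of stellate cells and fibroblasts was 170 to 240 TPM with 20 and 169 to 233 TPM with 100 nmol/kg, against 202 to 347 TPM with vehicle.

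The list of 26 macrophage genes had medians of -0.71 and -0.77 against vehicle and a median dose difference of -0.06, which lay between -0.17 (without replicate 74) and 0.04 (without replicate 75), and 0 members were called between doses. Against vehicle, 6 were called lower at 20 nmol/kg (2.93% of all genes were) and 11 at 100 nmol/kg (3.67% of all genes), and Cd163, a scavenger receptor of macrophages, was called higher at 100 nmol/kg (1.89). Ccl2, the chemokine that draws monocytes, ran from 2.06 to 7.36 TPM with vehicle, from 0.39 to 0.76 TPM with 20 and from 0.26 to 0.75 TPM with 100 nmol/kg. Its log2 fold changes were -2.97 and -3.09, with a dose interval of -1.46 to 1.22. Mmp12, a macrophage elastase, gave -1.97 and -2.02. The summed level of 6 markers of Kupffer cells and other macrophages was 172 to 294 TPM with 20 and 203 to 342 TPM with 100 nmol/kg, both overlapping vehicle at 208 to 391 TPM. Interferon-stimulated genes were lower at 100 nmol/kg in 22 of 26 cases with a median of -0.09, and in 11 of 26 with a median of 0.02 once the shallowest library of each dose was left out.

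The remaining lists added little. The clock list had 2 of 19 genes with an unadjusted p under 0.05, Per2 and Bhlhe40, against 3.02% of all genes. Per2, a repressor of the clock, had medians of 7.81, 11.4 and 7.21 TPM for vehicle, 20 and 100 nmol/kg and a dose difference of -0.47 (95% interval -0.77 to -0.17, unadjusted p = 0.0027), and Bhlhe40 gave -0.28. In the list of ATF4 and endoplasmic reticulum stress, Atf5 (0.22) and Herpud1 (-0.29) had an unadjusted p under 0.05 of 24 tested, against the same background. The acute phase list had 1 of 23, Itih3 at 0.22, and the NRF2 and xenobiotic list 0 of 23. Sex-biased and growth hormone-dependent genes were the least precise, since 11 of 28 intervals lay between -1 and 1. Hsd3b5, a male-biased steroid dehydrogenase, spread from 4 to 37.9 TPM with 20 and from 0.36 to 30.8 TPM with 100 nmol/kg, with a dose difference of -1.34 (-2.86 to 0.17).

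**Figure D5:**
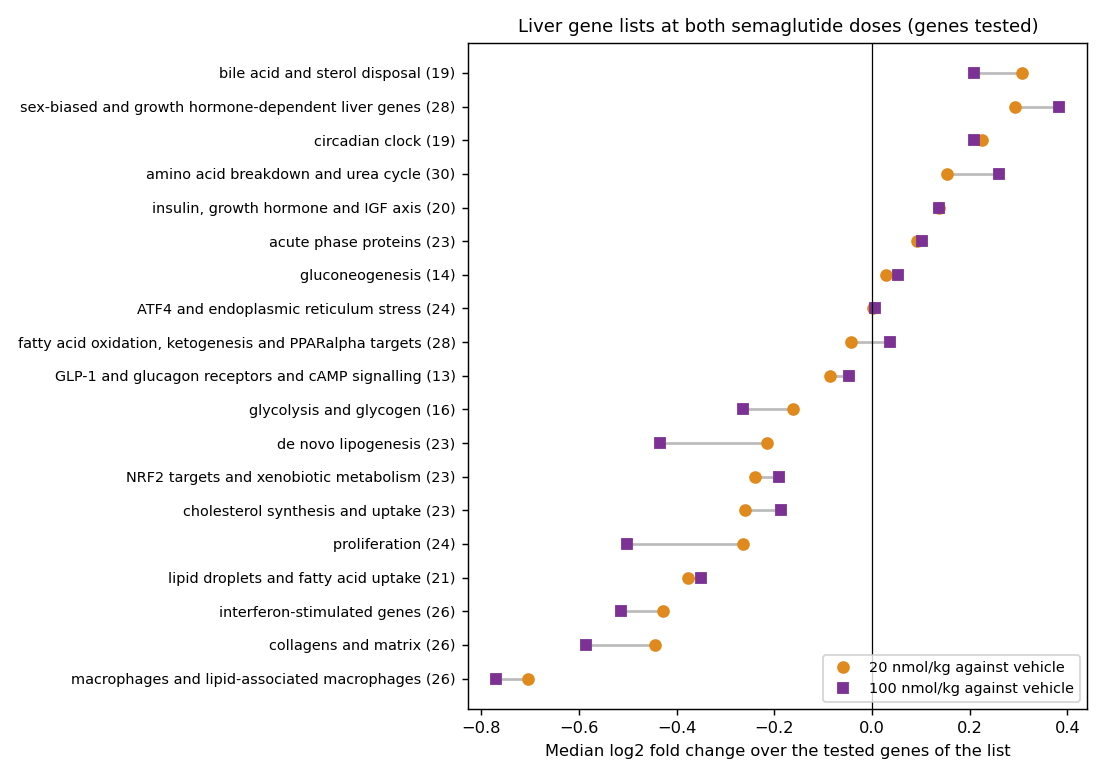
Median log2 fold change against vehicle (x axis) over the tested genes of 19 lists (y axis, with the number of genes), for 20 nmol/kg (orange circles) and 100 nmol/kg (purple squares). The widest gaps between the symbols belong to proliferation (-0.26 and -0.50) and de novo lipogenesis (-0.22 and -0.44).

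The genes with the largest responses to semaglutide follow, and 0 were called between the doses in limma/voom, as for all genes tested. Those chosen had 12 semaglutide values entirely outside the 6 vehicle values, so they are given as levels. Cep85l, a centrosomal protein, rose from 0.06 to 0.37 TPM with vehicle to 5.08 to 9 TPM with 20 and 4.32 to 6.83 TPM with 100 nmol/kg, with a dose interval of -0.71 to 0.40. Scara5, a ferritin receptor, rose from 0.45 to 1.12 TPM to 6.26 to 28.3 and 4.23 to 25.7 TPM, and its interval was -1.79 to 1.5. The unnamed gene ENSMUSG00000109836 reached 0.46 to 1.72 and 0.70 to 1.37 TPM (dose difference 0.08, -0.68 to 0.85), and the unclassified transcripts Gm45220 and Gm37303 had dose differences of -0.73 (-1.41 to -0.04, unadjusted p = 0.0383) and -0.08 (-0.92 to 0.76), of which the first interval leaves out 0.

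On the falling side stood Cfd, the adipocyte protease adipsin, from 5.44 to 18.7 TPM with vehicle to 0.13 to 2.72 TPM with 20 and 0.04 to 5.06 TPM with 100 nmol/kg. Its dose difference was -1.15 in limma/voom, with the opposite sign in DESeq2 and edgeR. Adiponectin (Adipoq), the defining fat cell marker, had at most 3 reads in every semaglutide liver library. The glutathione transferases Gsta1 and Gm10639, near-identical copies whose reads may be split between them, gave -0.86 (-2.92 to 1.20) and -1.504 (-3.69 to 0.69) between doses. A4gnt and Anxa8 gave -0.26 and -0.61, with at most 13 reads in any semaglutide library.

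The same step of semaglutide in eWAT called 0 of 18536 genes in limma/voom, with 693 at an unadjusted p under 0.05, and edgeR also called 0 while DESeq2 called 7. The difference between the liver and the eWAT dose step, tested as an interaction over 84 libraries that were treated as independent, called 0 of 15297 genes in limma/voom, with 392 at an unadjusted p under 0.05. The labels do not say whether the tissues came from the same mice. The edgeR test called 1 gene for it, Rgs16, and DESeq2 called 4.

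The libraries held liver. Summed markers of hepatocytes reached 88864 to 99201 TPM with 20 and 89827 to 116890 TPM with 100 nmol/kg, and 4 of 5 exocrine pancreas markers had at most 3 reads in every semaglutide library. Markers of sinusoidal endothelium (229 to 247 and 205 to 263 TPM) and erythroid cells (952 to 1169 and 913 to 1542 TPM) overlapped between doses, as did those of cholangiocytes (22.5 to 60.8 and 20.6 to 53.9 TPM), lymphocytes (3.79 to 9.18 and 3.57 to 6.26 TPM), neutrophils (2.08 to 5.73 and 2.01 to 5.07 TPM) and intestine and gallbladder epithelium (104 to 156 and 89.5 to 138 TPM). The summed adipocyte markers (2477 to 2907 and 1585 to 2989 TPM) were carried by Pck1, which hepatocytes also express, and no marker of the 11 cell types had an unadjusted p under 0.05. Depth ran from 21676902 to 44367319 reads with 20 and from 30040261 to 48176873 with 100 nmol/kg.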

How the data were processed

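RNA from liver and eWAT was sequenced, 6 libraries per group and tissue. The labels name the SMART-Seq v4 kit and single reads, whereas the study's methods name a directional poly(A) kit and paired reads, so strandedness is uncertain. The submitters' processing notes list STAR 2.5.2b, RSEM 1.3.0 and featureCounts 1.5.1 with GRCm38. The authors deposited a gene signal, read counts divided by a factor per library, and TPM, which is scaled by gene length. The deposited signal divided by its step gave whole reads for 100% of non-zero values (tolerance 0.01), 21676902 to 53869104 reads per liver library. Reads were counted without molecular identifiers.

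The signal of 42 liver libraries in 7 groups was fitted with limma 3.58.1 (voom, TMM factors, filterByExpr at a minimum of 10) in R 4.3.3, leaving 15964 of 48794 genes. Calls needed a log2 fold change of at least 1 and a Benjamini-Hochberg FDR of at most 0.05, the study's cut-offs. Folds are on voom's log2 scale, with 0.5 added to each value. Unadjusted p-values are limma's. Alternatives used edgeR 4.0.16 and DESeq2 1.42.0 on whole reads, other scalings and filters, log2(TPM + 1) and log2(TPM + 0.1), other sets of libraries, and each semaglutide library left out. The script was tested on simulated data.

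Named genes were those called, the 20 with the smallest p for 100 against 20, 41 landmark genes, the 5 risen and 5 fallen furthest for the mean of both doses without overlap with vehicle, the smallest p of each list, and any called for the interaction. Landmarks and lists were chosen with earlier results of these data known. No 2 semaglutide libraries of a dose agreed within sampling noise (chi-square per degree of freedom of at least 15.9). Nothing says that libraries of a group are more than separate samples, so p-values measure the spread between them. Each tissue was tested within its own table. Reference sequences are RefSeq, GRCm38.p6, and gene positions are GENCODE, GRCm38. Some of these genes are not reported here.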

Additional observations from a re-analysis of the deposited data

Results flagged for a closer look

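In groups of 6, a library was marked where its gap to the nearest other passed Dixon's 95% critical value, which chance does in about 1 in 20 groups. Over 146 groups of named genes and depth, 21 were marked (14.4%). Replicate 81 of the 100 nmol/kg group was highest for Igfbp1 (1298 TPM), Igfbp2 (1205 TPM), G6pc (563.67 TPM), Cidec (140 TPM) and Srxn1 (33.1 TPM), and lowest in depth (30040261 reads). In the same group, replicate 80 was highest for Cidea (13.1 TPM) and Cfd (5.06 TPM), replicate 82 for Gdf15 (19.8 TPM) and Nr4a1 (8.47 TPM), and replicate 84 for Cyp7a1 (174 TPM) and Gsta1 (3.72 TPM). With 20 nmol/kg, replicate 76 was highest for Tcim (64.7 TPM), Sds (386 TPM), Gls2 (254 TPM), Ass1 (3340 TPM) and Cyp2b10 (106 TPM), replicate 73 for Selenbp2 (372 TPM), replicate 74 for Tigd2 (5.72 TPM) and replicate 77 for Gdf15 (53.9 TPM), the last also lowest in depth (21676902 reads).

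For the liver step minus the eWAT step, Rgs16 was called at -3.17 by DESeq2 (adjusted p = 0.000536) and -3.18 by edgeR (adjusted p = 0.0169), against -1.81 in limma/voom (adjusted p = 0.9999). DESeq2 also called Il1b (-5.09), S100a9 (-4.96) and Saa3 (-3.23). Its 7 calls for the eWAT step alone were Arg1, Tgm1, Retnlg, Il1r2, Rgs16, Wnt4 and Saa3.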

How the results depend on the processing

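For 100 against 20 nmol/kg, 0 genes were called in limma/voom, edgeR and DESeq2 under every alternative, and the 1 gene at FDR 0.05 with the 12 semaglutide libraries alone is named in the report. Intervals between -1 and 1 numbered 13947 to 14116 with 1 library left out and 21822 with no filter (69.9% of 31197 genes). edgeR gives no interval, and the fit of the semaglutide libraries alone gives no value against vehicle. As libraries were left out, the genes that rose or fell were chosen again in each fit. Their median dose difference lay between -0.090 and 0.015 for the genes that rose and between -0.213 and -0.033 for those that fell.

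Against vehicle, with at least 10 counts in every library, 469 genes were called at 20 nmol/kg, 532 at 100 nmol/kg, 487 for the mean of both, and 223 for BI 456906 at 30 against 10 nmol/kg, and with log2(TPM + 1) 276, 277, 264 and 143. Without a minimum fold they were 7417, 7686, 8575 and 4074. A single library left out gave 846 to 1110, 900 to 1177, 983 to 1121 and 403 to 427. DESeq2 called 7 genes for the eWAT step and 4 for the interaction, and edgeR 1. The cause was not tested.

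Of 86 named genes with a fit, 61 kept the sign of the dose difference under every setting. With the shallowest library of each dose left out, a setting chosen after seeing the data, Gcgr became 0.0091, Cyp7a1 0.23, Cd36 0.28, Mogat1 0.032, Nnmt -0.023 and ENSMUSG00000109836 -0.0089. DESeq2 and edgeR gave 0.20 and 0.20 for Cyp7a1 and -0.013 and -0.022 for ENSMUSG00000109836, and DESeq2 gave 0.00088 for Cpt1a. For Cfd, DESeq2 and edgeR gave 0.21 and 0.23, against -1.15 in limma/voom. Sample quality weights gave 0.17 for Cyp7a1 and 0.022 for Cd36, and log2(TPM + 0.1) and log2(TPM + 1) gave 0.0013 and 0.0060 for Gm37303. With 1 library left out the range was -0.35 to 0.23 for Cyp7a1, -0.083 to 0.026 for Cpt1a, -0.21 to 0.19 for Cd36, -0.079 to 0.25 for ENSMUSG00000109836, -0.25 to 0.19 for Gm37303, -0.38 to 0.16 for Scara5 and -0.66 to 0.086 for A4gnt. No paired analysis was possible because the library numbers differ in each group.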
